A study of Mus musculus with 24 samples.

Results

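The 10 genes described here are interleukin-1 (IL-1) and interleukin-6 (IL-6) family cytokines and related members: Il1a, Il1b, Il1f6 (newer symbol Il36a), Il1rn, Il18, Il33, Il6, Lif, Osmr and Il34. They were taken by symbol from 35413 genes measured by bulk RNA sequencing of mouse kidney in 24 libraries, and estimated reads were summed over the Ensembl transcripts of each gene. Il34 belongs to neither family by sequence and is included as a cytokine that acts on myeloid cells, and Osmr encodes a receptor.

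The study held 2 separate experiments. In the knockout experiment, 6 libraries were labelled ENPP1 knockout and came from Enpp1 fl/fl animals carrying CAG-ERCre, a tamoxifen-activated Cre driven by a promoter that is active in most cell types, on an adenine diet. A second set of 6 came from Cre-negative animals on adenine, called wild type in the labels, and 4 came from animals on chow. In the antibody experiment all animals ate adenine, and 4 received a monoclonal antibody to human ENPP1 (hENPP1) and 4 a control IgG, by intraperitoneal injection of 50 mg/kg, 2 times per week. Both experiments ended after 14 days of adenine. The sources do not state the Cre status of the chow animals, the sex, age or strain of any animal, whether Cre-negative animals were given tamoxifen, or whether the antibody-treated animals express the human protein. Presence of the Cre coincides with the knockout label, so an effect of either cannot be told apart. No label says that the libraries of a group came from separate animals, and p-values measure the spread between libraries.

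IL-1 family cytokines signal through paired receptors and the adaptor MyD88 to NF-kB; Il1a, Il33 and Il1f6 are made as precursors that injured or stressed barrier cells can release, Il1b and Il18 are cut by inflammasome caspases, and Il1rn encodes the natural antagonist of the IL-1 receptor. IL-6 family cytokines such as IL-6 and LIF share the signal-transducing receptor encoded by Il6st and act mainly through JAK kinases and STAT3, with OSMR pairing with the same subunit to bind oncostatin M. IL-34 is the alternative ligand of CSF1R, the receptor that maintains macrophages, and in the kidney it is known to be produced by tubular epithelium.

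Libraries of the knockout experiment held 21049722 to 28209908 reads in genes, and those of the antibody experiment 43880608 to 50557594. Levels are given as CPM, read counts scaled to library size by the TMM method, and changes as log2 differences with their standard errors and Benjamini-Hochberg adjusted p-values from the quasi-likelihood test of edgeR, called at an adjusted p under 0.05. Enpp1 RNA, summed over the gene, stood at 22.7 ± 1.19 CPM in the libraries labelled knockout and 22.0 ± 1.52 CPM in wild-type adenine libraries (SD, n = 6 each). The log2 difference was 0.05 (95% interval -0.06 to 0.16, edgeR adjusted p = 0.47). Summed Enpp1 RNA was therefore not lower where the label says knockout. A summed count can miss the loss of some exons, and the sources do not give the deleted exons, so the label was not checked further. Those libraries are named by their label throughout. Kidney identity was plain from 7 proximal tubule markers, whose summed level lay between 3210 and 6560 CPM in the libraries labelled knockout, 1550 and 2800 CPM in wild-type adenine, 7590 and 7880 CPM in chow, 3350 and 4780 CPM with the antibody and 877 and 1420 CPM with IgG.

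Adenine feeding was accompanied by higher RNA of the whole set. In wild-type adenine libraries against chow, 10 of 10 members passed the test as higher, beside 44% of the 16959 genes tested that were called higher and 40.9% lower (84.9% in either direction). Values of 9 members lay above chow without overlap, as did those of 37.8% of genes, while 37.4% lay below. The median log2 change of the members was 3.22, and that of all genes was 0.07. The same 10 members were called higher in the libraries labelled knockout than in chow, with a median of 2.95 beside 0.03 for all genes, where 40.2% of genes were called higher and 39.9% lower (80.1% in either direction). Again 9 lay above chow without overlap, beside 33.6% of genes above and 36% below. These comparisons share the 4 chow libraries. Il1a, Il1f6, Il1rn, Il6 and Lif had too few chow reads to pass the low-count filter by that group. They passed through the adenine libraries, so only a call as higher was open to them. Such genes are also among all genes called higher and were not counted. The members were chosen with earlier results of these data known, so these counts are a description. In bulk tissue, fewer or more cells of a type and less or more RNA per cell cannot be told apart.

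Il1f6, an epithelial IL-1 family ligand, ran between 9.01 and 14.6 CPM in wild-type adenine libraries with a median of 12.2 CPM, against 0, 0, 0.0495 and 0.0507 CPM in chow. The chow values rest on 2 reads over 4 libraries, both assigned to a transcript without annotated coding sequence (Il1f6-202), and the ratio of wild-type adenine to chow was 488 with a counting interval of 135 to 4036. In the libraries labelled knockout that ratio to chow was 386 (107 to 3187). Il1f6 RNA was thus near the detection limit on chow and well above it in every adenine library.

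Il1rn, the IL-1 receptor antagonist, lay between 11.9 and 20.9 CPM in wild-type adenine (median 16.3), against 0.24, 0.157, 0.247 and 0.355 CPM in chow, and rose by 5.98 ± 0.33 on the log2 scale (SE; edgeR adjusted p = 2.91e-12). Il1a lay between 0.249 and 1.24 CPM in wild-type adenine (median 0.821), against 0, 0.157, 0.0495 and 0 CPM in chow, and rose by 3.76 ± 0.71 (adjusted p = 7.89e-05). Il1b, cut by caspase 1 to its active form, lay between 5.01 and 8 CPM in wild-type adenine (median 5.81), against 1.92, 1.41, 1.29 and 1.88 CPM in chow, and rose by 1.88 ± 0.24 (adjusted p = 6.23e-07). No library of either diet overlapped the other for these genes, and the estimate for the antagonist exceeded those for both agonists, a difference that was not tested.

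Il33, an alarmin of endothelial and stromal nuclei, lay between 11.1 and 14.4 CPM in wild-type adenine (median 12.8), against 8.44, 8.49, 9.05 and 7.40 CPM in chow, and rose by 0.62 ± 0.11 (adjusted p = 4.2e-05). Il18, a ligand that induces interferon gamma, lay between 1.91 and 2.58 CPM in wild-type adenine (median 2.37), against 2.06, 1.41, 1.78 and 1.52 CPM in chow, and rose by 0.45 ± 0.17 (adjusted p = 0.0171). Both genes had RNA in every chow library and the smallest log2 estimates of the set. Il18 values of the diets overlapped, and its call was lost without chow replicate 2 (adjusted p = 0.0536).

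Of the IL-6 side, Lif lay between 32.4 and 46.2 CPM in wild-type adenine (median 38.8), against 0.384, 0.576, 0.297 and 0.355 CPM in chow, and rose by 6.57 ± 0.22 (adjusted p = 5.23e-15). Osmr lay between 66.5 and 78.9 CPM in wild-type adenine (median 69.8), against 13.9, 17.8, 18.9 and 18.6 CPM in chow, and rose by 2.04 ± 0.12 (adjusted p = 4.31e-12). Il34 lay between 44.9 and 58.5 CPM in wild-type adenine (median 53.4), against 8.63, 8.38, 5.99 and 6.64 CPM in chow, and rose by 2.84 ± 0.12 (adjusted p = 1.06e-13). Each of the 3 separated the diets completely. Il6 itself stayed scarce, between 0.249 and 0.461 CPM in wild-type adenine (median 0.38), against 0, 0.0524, 0 and 0.0507 CPM in chow; with 57 reads against 2, its ratio was 14.5 (counting interval 3.84 to 122.8). Libraries labelled knockout, set against the same chow libraries, had log2 changes of 5.68 ± 0.23 for Lif, 5.81 ± 0.33 for Il1rn, 2.35 ± 0.12 for Il34 and 1.46 ± 0.12 for Osmr. The changes of the IL-1 family ligands there were 3.54 ± 0.73 for Il1a, 1.80 ± 0.24 for Il1b, 0.92 ± 0.11 for Il33 and 0.49 ± 0.17 for Il18 (edgeR adjusted p = 0.0115 or less for these 8), and the read ratio of Il6 was 18.5 (4.94 to 155.9).

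Marker sums moved with diet too, where 44% of all genes were called higher and 40.9% lower. Injured tubule markers summed to 671 to 977 CPM in wild-type adenine and 19.4 to 22 CPM in chow. Macrophage markers summed to 291 to 444 CPM in wild-type adenine and 151 to 168 CPM in chow, with 6 of 7 higher. Neutrophil markers summed to 27.8 to 40.3 CPM in wild-type adenine and 7.24 to 11.9 CPM in chow, where Mmp8 and Camp were at 0. Other lists were lower: proximal tubule markers in 7 of 7, collecting duct markers in 6 of 6, loop of Henle and distal tubule markers in 4 of 5, and endothelial, urothelial and red blood cell markers in 5 of 5 each. Their median log2 changes were -2.56, -1.83, -1.64, -1.77, -2.77 and -5.74 in that order. Red blood cell markers summed to 12.5 to 35.7 CPM in wild-type adenine and 1070 to 1300 CPM in chow. Fibroblast markers divided, with 1 of 5 higher and 3 lower, and T cell and B cell markers were higher in 3 of 5 and 3 of 4. Their part in the members' changes was not tested.

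Promoter sequence is printed for the paired IL-1 agonists, their antagonist and Lif, a selection made after the values were seen, so that the motifs of NF-kB and AP-1, factors downstream of IL-1 signalling, can be read beside their values. Of the 10 genes, 8 matched the RefSeq table of the build GRCm38.p6, with 11 windows of 300 bases that run from 250 bases before to 50 bases after the start; Il1f6 and Il34 had none. Capitals mark matches, on either strand, to TGANTCA for AP-1, or to GGG and TTCC with any 3 bases between them for NF-kB, and the matches printed do not overlap each other. The Il1b window holds no match to either motif, nor to TTCNNNGAA for STAT or TTGCNNAA for C/EBP, and is shown for comparison.
Il1a, chr2:129309923-129310222, minus strand, AP-1 match beginning 12 bases before the start: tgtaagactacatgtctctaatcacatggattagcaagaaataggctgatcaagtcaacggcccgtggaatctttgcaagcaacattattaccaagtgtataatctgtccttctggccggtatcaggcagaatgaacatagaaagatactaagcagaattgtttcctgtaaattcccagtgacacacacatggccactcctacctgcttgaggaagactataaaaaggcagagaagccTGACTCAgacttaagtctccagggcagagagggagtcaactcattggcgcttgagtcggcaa
Il1b, chr2:129371090-129371389, minus strand, no match: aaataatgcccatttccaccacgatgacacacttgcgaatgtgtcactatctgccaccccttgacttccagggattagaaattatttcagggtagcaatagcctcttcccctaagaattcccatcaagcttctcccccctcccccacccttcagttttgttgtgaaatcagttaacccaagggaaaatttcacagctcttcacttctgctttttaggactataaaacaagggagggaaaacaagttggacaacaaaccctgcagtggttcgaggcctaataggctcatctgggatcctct
Il1rn upstream start, chr2:24336610-24336909, plus strand, AP-1 match 141 and NF-kB match 4 bases before the start: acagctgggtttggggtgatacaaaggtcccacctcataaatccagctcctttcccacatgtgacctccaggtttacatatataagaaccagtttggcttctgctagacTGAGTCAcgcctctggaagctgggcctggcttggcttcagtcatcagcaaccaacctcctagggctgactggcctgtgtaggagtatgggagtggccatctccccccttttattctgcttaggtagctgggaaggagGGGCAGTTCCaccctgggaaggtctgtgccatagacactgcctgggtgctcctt
Il1rn downstream start, chr2:24345041-24345340, plus strand, NF-kB match 29 bases after the start: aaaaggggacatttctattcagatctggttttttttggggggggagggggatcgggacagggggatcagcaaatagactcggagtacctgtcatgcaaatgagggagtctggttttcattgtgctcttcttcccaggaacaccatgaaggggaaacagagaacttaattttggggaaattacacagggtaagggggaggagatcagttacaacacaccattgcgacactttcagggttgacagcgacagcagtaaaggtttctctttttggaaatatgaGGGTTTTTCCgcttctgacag
Lif, chr11:4257318-4257617, plus strand, AP-1 match 228 bases before the start: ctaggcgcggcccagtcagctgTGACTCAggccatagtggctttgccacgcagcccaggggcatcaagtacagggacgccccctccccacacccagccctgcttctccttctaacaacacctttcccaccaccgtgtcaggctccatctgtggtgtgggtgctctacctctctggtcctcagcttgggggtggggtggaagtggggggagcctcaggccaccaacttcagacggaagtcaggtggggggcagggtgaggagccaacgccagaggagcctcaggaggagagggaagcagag
Over the 32851 promoters of the same length in the table, 7.8% held the AP-1 letters, 5.6% the NF-kB letters, 8.3% the STAT letters and 10.8% the C/EBP letters. Of the windows not printed, that of Il6 held matches for AP-1, C/EBP and NF-kB, beginning 249, 128 and 44 bases before the start, that of Osmr held an AP-1 match beginning 3 bases after it, the downstream Il33 window held a C/EBP match beginning 85 bases before it, and the upstream Il33 window and that of Il18 held no match. Another downstream Il1rn window, also not printed, held the same NF-kB match, beginning 51 bases before its own start. A match is a description and not a binding site. The Lif window belongs to Lif-202, which took 17.3% of Lif reads in the libraries labelled knockout and 16.4% in wild-type adenine, while Lif-201, with 80.2% and 81.3%, starts 9527 bases further downstream. The Il18 window lies nearest Il18-203, with 9.3% of Il18 reads in wild-type adenine, while Il18-204 and Il18-202 start 10674 and 20573 bases downstream. Osmr-201, with 93.9% of Osmr reads in wild-type adenine, starts upstream of the Osmr window. The downstream Il33 window belongs to Il33-201, with 7.6% of Il33 reads in wild-type adenine.

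Levels can be compared between genes only per length. By deposited TPM, Il34 was the most abundant member in wild-type adenine, at 81.9 ± 12.1 TPM (SD, n = 6), followed by Il1f6 at 23.4 ± 3.94, Osmr at 19.8 ± 2.68, Lif at 17.4 ± 2.74 and Il1rn at 10.5 ± 2.73 TPM. Il1b (6.89 TPM), Il33 (6.46), Il18 (4.82), Il6 (0.496) and Il1a (0.495) came after. Ranges of neighbours in this order overlapped, except between Il34 and Il1f6, Il33 and Il18, and Il18 and Il6. The lead of Il34 shrank to 24.4 TPM, beside 20.1 TPM for Il1f6, when transcripts without annotated coding sequence were left out.

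Libraries labelled knockout were next compared with wild-type adenine libraries on the same diet, a comparison of the labels. Summed Enpp1 RNA did not pass the test given above, which cannot show whether exons were lost. Lif, Osmr, Il34 and Il1f6 were lower, Il33 was higher, and Il1a, Il1b, Il1rn, Il18 and Il6 did not pass the test. The count was 1 of 10 higher and 4 of 10 lower, beside 25.1% and 21.3% of all genes tested (46.4% in either direction), with a median log2 change of -0.19 for the members and -0.02 for all genes. Lif, Osmr and Il34 had no overlap between the groups, where 10.2% of genes were lower and 14.4% higher without overlap.

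Lif lay between 15.7 and 25.1 CPM in the libraries labelled knockout (median 20.8), against 32.4 and 46.2 CPM in wild-type adenine (median 38.8). It was 1.85-fold lower, a log2 change of -0.89 ± 0.11 (edgeR adjusted p = 2.27e-06). The highest library labelled knockout stayed below the lowest wild-type library. Osmr lay between 38.3 and 60.7 CPM in the libraries labelled knockout (median 46.7), against 66.5 and 78.9 CPM in wild type (median 69.8), a log2 change of -0.58 ± 0.092 (adjusted p = 4.98e-05). Il34 lay between 32.1 and 44.8 CPM in the libraries labelled knockout (median 37.4), against 44.9 and 58.5 CPM in wild type (median 53.4), a log2 change of -0.49 ± 0.09 (adjusted p = 0.000236). The Il34 groups touch, with 44.8 CPM as the highest labelled knockout value and 44.9 CPM as the lowest wild-type value.

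Il33 lay between 12.8 and 18.7 CPM in the libraries labelled knockout (median 16.2), against 11.1 and 14.4 CPM in wild type (median 12.8), a log2 change of 0.29 ± 0.092 (adjusted p = 0.0137) with overlapping groups. Upper-quartile scaling ended that call (adjusted p = 0.0569). Il1f6 lay between 6.54 and 12.2 CPM in the libraries labelled knockout (median 9.90), against 9.01 and 14.6 CPM in wild type (median 12.2), a log2 change of -0.35 ± 0.13 (adjusted p = 0.0394). The Il1f6 call was the least firm of the 5: it was lost with a transcript-length offset (adjusted p = 0.0544), on coding transcripts alone (0.0516), and without replicate 1, 2 or 3 labelled knockout or wild-type replicate 2, 3, 4 or 6 (0.0514 to 0.0938).

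The members without a call had wide intervals where reads were few. Il1a differed by a log2 of -0.21 (95% interval -0.98 to 0.56, adjusted p = 0.662), on 100 reads over the libraries labelled knockout and 118 over wild type. Il6 differed by 0.35 (-0.33 to 1.03, adjusted p = 0.398), on 72 and 57 reads. Il1b differed by -0.08 (-0.45 to 0.29, adjusted p = 0.743) and Il18 by 0.04 (-0.25 to 0.33, adjusted p = 0.847). Il1rn differed by -0.17 (-0.50 to 0.15, adjusted p = 0.386), but without replicate 5 labelled knockout it was called lower, at -0.35 (adjusted p = 0.0196). That library held the highest value of its group for 9 of 10 members, the highest macrophage marker sum (451 CPM) and the lowest proximal tubule sum (3210 CPM). Replicate 1 labelled knockout held the lowest value for 7 of 10.

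Of the receptors these ligands use, Il6st stood at 105 ± 4.97 CPM in the libraries labelled knockout and 105 ± 3.37 CPM in wild type (SD, n = 6 each; log2 difference 0.003, adjusted p = 0.962). Lifr, the LIF receptor, stood at 92 ± 2.08 CPM in the libraries labelled knockout and 91.3 ± 6.17 CPM in wild type (0.01, adjusted p = 0.85). Il6ra, the IL-6 binding chain, differed by a log2 of 0.10 (adjusted p = 0.452) and Csf1r, the receptor of IL-34, by 0.10 (adjusted p = 0.179). Il1r1, the signalling IL-1 receptor, was lower (-0.30 ± 0.065, adjusted p = 0.00114), as was Il18bp, the soluble IL-18 inhibitor (-0.36 ± 0.09, adjusted p = 0.00317), while Il1rl1, the IL-33 receptor, and Il1rl2, the receptor of IL-36, did not pass (adjusted p = 0.174 and 0.108). Of 9 IL-1 family receptors and decoys 1 was higher and 4 were lower, and of 7 IL-6 family receptors 2 were higher and 0 lower, among them Il11ra1, the IL-11 receptor (0.67 ± 0.061, adjusted p = 1.58e-07). The median log2 changes of these lists were -0.30 and 0.06, beside -0.02 for all genes, of which 25.1% were called higher and 21.3% lower.

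Other ligands and targets of the same pathways were counted from lists, beside 25.1% of all genes called higher and 21.3% lower. Counts near those shares do not set a list apart. Of 12 NF-kB targets of IL-1, 9 were lower and 0 higher (median log2 change -0.56), led by the neutrophil chemokines Cxcl1 (-1.14 ± 0.14, adjusted p = 4.92e-06) and Cxcl2 (-0.87 ± 0.15, adjusted p = 0.000109). Of 12 processing and adaptor genes, 7 were lower and 1 higher (median -0.20), including the inflammatory caspase gene Casp4 (-0.65 ± 0.071, adjusted p = 8.91e-07) and Gsdmd, the pore former of pyroptosis (-0.54 ± 0.10, adjusted p = 0.000377). Of 7 other IL-6 family ligands tested, 3 were lower and 0 higher (median -0.01), including Clcf1, a ligand of the CNTF receptor (-0.82 ± 0.092, adjusted p = 1.23e-06), and Il11 (-0.48 ± 0.12, adjusted p = 0.00386). Of 11 JAK-STAT3 genes, 5 were lower and 1 higher (median -0.16), including Stat3 itself (-0.41 ± 0.054, adjusted p = 6.31e-06) and Bcl3, an NF-kB cofactor induced by STAT3 (-0.52 ± 0.10, adjusted p = 0.000402). Of 10 acute phase targets 3 were lower and 0 higher (median -0.18), and of 4 genes of the CSF1 receptor pathway 2 were lower and 0 higher (median -0.20), among them Csf1, the other CSF1R ligand (-0.51 ± 0.073, adjusted p = 2.17e-05). Of 2 other IL-1 family ligands tested, 0 passed in either direction.

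Cell type markers moved in the same libraries, beside 25.1% of all genes called higher and 21.3% lower. Proximal tubule markers were higher in 7 of 7, endothelial markers in 5 of 5, fibroblast markers in 3 of 5 and red blood cell markers in 5 of 5, with red blood cell sums between 204 and 492 CPM in the libraries labelled knockout and 12.5 and 35.7 CPM in wild type. Injured tubule markers were lower in 3 of 5, with sums between 552 and 805 CPM in the libraries labelled knockout and 671 and 977 CPM in wild type. Macrophage sums overlapped, at 326 to 451 CPM in the libraries labelled knockout and 291 to 444 CPM in wild type, and 1 of 7 markers was lower; neutrophil sums were 21.6 to 34.6 CPM in the libraries labelled knockout and 27.8 to 40.3 CPM in wild type, with 1 of 5 tested markers lower. Loop of Henle and distal tubule markers were higher in 4 of 5, collecting duct markers in 4 of 6 and urothelial markers in 3 of 5, while 0 of 5 T cell and 0 of 4 B cell markers passed. The part of these shifts in the lower Lif, Osmr, Il34 and Il1f6 and the higher Il33 was not tested.

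In the antibody experiment, libraries from animals given the antibody were compared with those from animals given IgG on the same diet. Whether the antibody acted on the animals' ENPP1 was not tested. Enpp1 RNA was not called between these groups (log2 change -0.003, 95% interval -1.04 to 1.035, edgeR adjusted p = 0.997). That interval was wider than the one under the knockout label (-0.06 to 0.16), and the reason was not tested. Il1a, Il1b, Il1rn, Il33 and Osmr were lower with the antibody than with IgG, and Il1f6, Il18, Il6, Lif and Il34 did not pass the test. The count was 0 of 10 higher and 5 of 10 lower, beside 27.2% and 28% of the 16404 genes tested (55.3% in either direction), with a median log2 change of -0.50 for the members and -0.04 for all genes. Groups did not overlap for 4 of the 5 lower members, where 25.2% of genes were lower and 25.4% higher without overlap. Il1a, 1 of these 4, had 12 reads over the antibody libraries and passed the low-count filter through the IgG libraries. Only a call as lower was therefore open to it.

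Il1a was measured at 0.148, 0.0696, 0.0703 and 0 CPM with the antibody, against 0.30, 0.982, 0.379 and 0.439 CPM with IgG, from 12 and 114 reads over the groups. Its log2 change was -2.82 ± 0.61 (edgeR adjusted p = 0.00277), and every antibody library lay below every IgG library. Il1b was measured at 2.57, 2.11, 1.97 and 1.45 CPM with the antibody, against 3.60, 6.42, 4.21 and 5.33 CPM with IgG. It was 2.41-fold lower (log2 change -1.27 ± 0.22, adjusted p = 0.000693), again without overlap. Il1rn was measured at 20.2, 20.3, 16.2 and 13.8 CPM with the antibody, against 22.8, 31.9, 25.3 and 26.6 CPM with IgG, a log2 change of -0.60 ± 0.14 (adjusted p = 0.00356). The IL-1 agonists and their antagonist were thus all lower, without overlap.

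Il33 was measured at 12.1, 9.79, 10.9 and 8.71 CPM with the antibody, against 15.9, 19.1, 15.0 and 11.2 CPM with IgG, a log2 change of -0.56 ± 0.15 (adjusted p = 0.00994). IgG replicate 4 lay below antibody replicate 1, so these groups overlap. Osmr was measured at 43.3, 37.5, 41.8 and 30.7 CPM with the antibody, against 43.5, 71.2, 51.1 and 61.7 CPM with IgG, a log2 change of -0.57 ± 0.15 (adjusted p = 0.00794), and the nearest libraries of the groups stood at 43.3 CPM with the antibody and 43.5 CPM with IgG. These 5 calls held in each of the 15 alternative analyses run on this comparison.

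Lif was measured at 21.9, 21.3, 17.9 and 8.37 CPM with the antibody, against 13.1, 14.3, 11.3 and 16.6 CPM with IgG, a log2 change of 0.33 (95% interval -0.21 to 0.87, adjusted p = 0.271). In antibody replicates 1 to 3 it exceeded every IgG library, and antibody replicate 4 lay below every IgG library; without that library the change was 0.565 and was called (adjusted p = 0.00515). Antibody replicate 4 held the lowest value of its group for 8 of 10 members, with the lowest macrophage sum (131 CPM) and the highest proximal tubule sum (4780 CPM). Il18 was measured at 3.21, 2.13, 3.56 and 2.35 CPM with the antibody, against 4.50, 3.84, 3.88 and 3.15 CPM with IgG, a log2 change of -0.45 (-0.86 to -0.04) that missed the threshold (adjusted p = 0.0627). It was called lower in 7 of 15 alternative analyses. Il1f6 differed by -0.09 (-0.52 to 0.33, adjusted p = 0.698) and Il6 by -0.35 (-1.01 to 0.31, adjusted p = 0.336, on 69 and 114 reads).

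Among receptors, Il6st was higher with the antibody, at 167 ± 6.59 CPM against 113 ± 6.34 CPM with IgG (SD, n = 4 each; log2 change 0.56 ± 0.065, adjusted p = 8.8e-05), while Il6ra was lower, at 5.41 ± 1.29 against 9.80 ± 1.29 CPM (-0.86 ± 0.17, adjusted p = 0.00177). Csf1r stood at 20 ± 2.84 CPM with the antibody and 32.2 ± 7.88 CPM with IgG (-0.69 ± 0.16, adjusted p = 0.00356). Il1rl2, Il18r1 and Il18bp were lower as well (-1.05, -1.17 and -0.35 on the log2 scale), and Il1r1, Il1rl1 and Lifr did not pass (adjusted p = 0.407, 0.151 and 0.733). Of 9 IL-1 family receptors and decoys 2 were higher and 4 lower (median log2 change -0.35), and of 7 IL-6 family receptors 1 was higher and 1 lower (median -0.03). Over all genes tested, 27.2% were called higher and 28% lower with the antibody. Of 12 processing and adaptor genes 3 were higher and 6 lower (median -0.38), including Casp1, which cuts the IL-1 beta and IL-18 precursors (-1.26 ± 0.21, adjusted p = 0.000597), and Casp4 (-1.13 ± 0.17, adjusted p = 0.000308).

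Of 11 NF-kB targets of IL-1 tested, 8 were lower and 0 higher with the antibody (median -0.76). They include Ptgs2, the inducible cyclooxygenase (-1.18 ± 0.29, edgeR adjusted p = 0.00598). A link of these genes to the lower Il1a and Il1b was not tested. Other IL-6 family ligands were lower in 4 of 7 tested and higher in 0 (median -1.27), including Il11 (-1.33 ± 0.16, adjusted p = 8.84e-05). The acute phase list divided, with 3 of 11 higher, including the fibrinogen gene Fga (1.39 ± 0.22, adjusted p = 0.00042), and 5 lower, including haptoglobin, Hp (-1.34 ± 0.28, adjusted p = 0.0022), with a median of -0.10. JAK-STAT3 genes divided evenly, with 4 of 11 higher and 4 lower (median -0.28), and 3 of 3 genes of the CSF1 receptor pathway were lower (median -0.66). The last list holds Csf1r, given above, which is also counted among the macrophage markers, so the lists are not fully separate. These counts stand beside 27.2% of all genes called higher and 28% lower, and those near these shares do not set a list apart. Of 2 other IL-1 family ligands tested, 1 was lower, Il1f9 (newer symbol Il36g; -0.46 ± 0.16, adjusted p = 0.0283).

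Macrophage markers were lower with the antibody in 7 of 7, with sums between 131 and 192 CPM against 296 and 584 CPM with IgG, and fibroblast markers in 5 of 5, with sums between 56.4 and 85.2 CPM against 128 and 229 CPM. Neutrophil sums were 7.15 to 10.2 CPM with the antibody and 12.8 to 19.2 CPM with IgG, 3 of 4 tested markers were lower, and Camp was at 0 in both groups. Proximal tubule markers were higher in 7 of 7 and injured tubule markers lower in 5 of 5, with injured tubule sums of 1400 to 2060 CPM against 2070 to 2580 CPM. Loop of Henle and distal tubule markers were higher with the antibody in 5 of 5 and collecting duct markers in 4 of 6, endothelial markers were lower in 2 of 5 and T cell markers in 1 of 5, and 0 of 5 red blood cell markers passed. Among all genes tested, 27.2% were called higher and 28% lower. The part of the marker shifts in the lower Il1a, Il1b, Il1rn, Il33 and Osmr was not tested.

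The 2 interventions were compared by a contrast of their changes over the 20 adenine libraries. A difference was called for 5 of 10 members, 3 with a higher change under the knockout label and 2 with a lower, beside 16.3% and 21.6% of the 17113 genes tested (37.9% in either direction). The change under the knockout label minus that with the antibody was -1.30 ± 0.27 for Lif (edgeR adjusted p = 0.00083), which was lower under the knockout label and not called with the antibody. It was 2.52 ± 0.75 for Il1a (adjusted p = 0.0112), 1.12 ± 0.31 for Il1b (adjusted p = 0.00731) and 0.78 ± 0.18 for Il33 (adjusted p = 0.00199). The Il1a difference rests on 12 reads over the antibody libraries. Il1a and Il1b were called lower with the antibody and not under the knockout label, and Il33 was called higher under the label, a call lost with upper-quartile scaling, and lower with the antibody. For Osmr, lower in both, the difference was -0.09 (95% interval -0.46 to 0.28, adjusted p = 0.727), and Il1rn (0.35, -0.16 to 0.86), Il18 (0.41, -0.05 to 0.87), Il6 (0.62, -0.31 to 1.56) and Il1f6 (-0.33, -0.84 to 0.18) did not pass either. For Il34 the difference of -0.47 ± 0.13 (adjusted p = 0.00728) was not called with upper-quartile scaling (adjusted p = 0.0836) or a transcript-length offset (0.248). On coding transcripts alone, an analysis added after seeing the data, it was -0.77 (edgeR adjusted p = 0.000293). Its size and call thus depended on the processing. The experiments were sequenced to different depths, and what else separates them besides the intervention cannot be told apart from it. Their adenine controls also differed in Lif, at 32.4 to 46.2 CPM in wild-type adenine and 11.3 to 16.6 CPM with IgG. Libraries labelled knockout lay at 15.7 to 25.1 CPM. These CPM were scaled within each experiment, and the part of the control level in the Lif difference was not tested.

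Il34 depended on which transcripts were counted. The deposited table lists 5 Il34 transcripts, and Il34-205, of 675 bases and with no annotated coding sequence, held 23.7% of Il34 reads with the antibody (20.8% to 29.5%) and 43.2% with IgG (38.0% to 48.9%). The coding Il34-201 held 65.2% with the antibody (60.5% to 67.6%) and 48.1% with IgG (42.9% to 51.1%). Shares of the groups did not overlap for either transcript. Over all transcripts Il34 was measured at 55.3, 54.5, 58.5 and 46.2 CPM with the antibody, against 59.0, 62.5, 51.4 and 56.0 CPM with IgG, a log2 change of -0.09 (95% interval -0.28 to 0.10, adjusted p = 0.374). On coding transcripts alone, an analysis chosen after seeing these shares, it was called higher (0.27, adjusted p = 0.0143). With a transcript-length offset it was called lower (-0.39, adjusted p = 0.0157), as it was with upper-quartile scaling (-0.25, adjusted p = 0.0302). No direction is therefore given for Il34 with the antibody. Between libraries labelled knockout and wild type, Il34-205 held 34.8% (31.5% to 38.1%) and 38.3% (35.9% to 41.9%), and the lower Il34 was called on coding transcripts too (-0.44, adjusted p = 0.00201).

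Transcript shares of other members were read in the same way, as descriptions chosen after their values were seen. Il18-202, a coding transcript, held 21.8% of Il18 reads with the antibody (0% to 30.9%) and 50.8% with IgG (45.7% to 56.2%), and Il18-204, also coding, held 65.3% with the antibody (50.5% to 83.6%) and 42.5% with IgG (32.7% to 54.3%). In the knockout experiment the share of Il18-202 varied from 0% to 66.2% among the libraries labelled knockout and from 0% to 80.8% in wild type, so libraries of the same group differed widely. Il1rn reads assigned to transcripts of the upstream start, printed above, made up 33.3% in the libraries labelled knockout and 33.0% in wild type, and 56.2% with the antibody and 47.5% with IgG. The main upstream transcript, Il1rn-204, ranged from 31.8% to 66.9% with the antibody and from 33.4% to 54.1% with IgG, so these groups overlapped. Division of reads among overlapping transcripts is an estimate of the quantifier, and the error of that division was not analysed here.

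The genes most like each member were taken by Pearson's r of log2 CPM over the 16 libraries of the knockout experiment, among 12117 genes. These libraries fall into 3 groups set by diet and label, so r mostly ranks genes by the contrast of adenine with chow. Lif was closest to Cxcl1 (r = 0.998), Parp3 and Bcl3 (both 0.997), and Il1f6 to Socs3, Gnai2 and Serpina10 (each 0.998). Il34 was closest to Pold1 (0.997), Flot2 and Csf1 (both 0.996), Osmr to Ifnlr1 and Trpv6 (both 0.994) and Fosl2 (0.993), and Il1rn to Ppp1r9b, Aoc1 and Fgr (each 0.997). Il1b was closest to Capn1 (0.978), S100a9 (0.974) and Mab21l3 (0.972), and Il1a to Slc7a11 (0.947), Mmp12 (0.936) and Mbd1 (0.924). The closest gene was Lrp1 (0.958) for Il33 and Ino80e (0.927) for Il6. Il18 had no close match, with Vmn1r201 at 0.778 as the highest.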

How the data were processed

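Per the submitters' processing notes, the tools were FastQC, Salmon, DESeq and DESeq2 and the genome build GRCm39; the sources used here give no versions. Per the labels' protocols, each stranded library started from 400 ng of kidney RNA. The authors deposited expected counts per transcript (estimated counts, not normalized), effective lengths and TPM values scaled within each library, per the file headers.

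Transcripts were assigned to genes by identifier, without version, through GENCODE M21 (GRCm38); 115636 of 116755 matched, and the rest, holding 0.45% to 0.57% of reads, were left out. Expected counts were summed per gene and rounded. Because that annotation is older than the submitters' build, coordinates are given for promoter windows alone, as RefSeq gives them for GRCm38.p6. TPM ranks genes within a group; it was not used to compare groups, since its median over genes shifted between groups.

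Tests used edgeR 4.0.16 in R 4.3.3 (filterByExpr, TMM, quasi-likelihood F test, two-sided, Benjamini-Hochberg adjustment over all genes tested, threshold 0.05). A single fit held the 16 knockout-experiment libraries, another held the 8 of the antibody experiment, and the difference of changes was fitted on the 20 adenine libraries. All 10 members passed the filter in every fit. Standard errors were taken from the F statistic. Where a group held at most 3 reads, a ratio with an exact 95% counting interval replaces the fitted change; it covers counting error only. The test was run on simulated data in which few genes changed, in equal numbers up and down, and the comparisons with chow were not simulated. Far more genes were called in these data, so that run does not check the scaling here.

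Alternatives were RLE and upper-quartile scaling, no low-count filter, a transcript-length offset, a replicate block, DESeq2 1.42.0, each library left out in turn and, added after seeing the data, coding transcripts only. Named genes are the 10 members, a fixed set of receptors and up to 2 genes per pathway list with the largest called change and a mean of at least 1 CPM. Up to 3 genes most like each member, with a mean of at least 5 CPM, are named too. A gene that this rule also names is not reported here. Members and lists were chosen with earlier results of these data known. Same-numbered libraries of different groups did not deviate together, so numbers were not taken as pairs.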

Additional observations from a re-analysis of the deposited data

Results flagged for a closer look

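Of 50 combinations of gene and group examined, 3 held a library far from the rest, where chance gives about 1 in 20 groups. Il1b stood at 8 CPM in wild-type adenine replicate 1, with the next library at 5.82 CPM and the lowest at 5.01 CPM. Il1rn stood at 22.7 CPM in replicate 5 labelled knockout, with the next at 14.5 CPM and the lowest at 10.2 CPM. Il6 stood at 0.234 CPM in antibody replicate 3, below the next at 0.464 CPM and the highest at 0.494 CPM, on 10 reads.

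For 5 genes the contrast of the change under the knockout label with the change under the antibody passed the edgeR test (adjusted p from 0.00083 to 0.0112). On the log2 scale the differences were 2.52 for Il1a, 1.12 for Il1b, 0.78 for Il33, -1.30 for Lif and -0.47 for Il34. The direction of the Il34 change with the antibody turned with the transcripts counted.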

How the results depend on the processing

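RLE scaling and the fit without a low-count filter left the direction and call of all 50 member results as they were, and DESeq2 moved 1, the Il18 call with the antibody. Replicate numbers do not pair these libraries: deviations of same-numbered libraries correlated between -0.19 and 0.096. With the replicate block, 49 of 50 results kept their direction and call, and Il18 was called lower with the antibody (-0.47, adjusted p = 0.0443). Upper-quartile scaling shifted the median of all genes by 0.226 in wild-type adenine against chow, 0.161 in libraries labelled knockout against chow, -0.155 with the antibody and 0.155 in the difference. The share of calls that were higher was then 40.7% against 54.1% under the knockout label, 31.1% against 49.3% with the antibody, and 69.1% against 43% in the difference, where 4495 genes were higher and 2014 lower, against 2788 and 3695. Under that scaling 0 members were higher under the knockout label, and 1 member was lower in the difference, as with the length offset. On coding transcripts, chosen after seeing the data, 1 member was higher with the antibody, Il34, whose change turned to 0.27. The cause of the other shifts was not tested.

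Small uncalled changes turned sign. Under the knockout label Il18 went to -0.027 with upper-quartile scaling, -0.12 with the length offset, -0.007 on coding transcripts, -0.005 without replicate 3 labelled knockout and -0.014 without wild-type replicate 1, and Il1b to 0.045 without replicate 1 labelled knockout and 0.02 without wild-type replicate 1; over left-out libraries Il18 ranged from -0.014 to 0.131 and Il1b from -0.251 to 0.045. With the antibody Il1f6 went to 0.073 without antibody replicate 4 and 0.043 without IgG replicate 3 (range -0.188 to 0.073). In the difference Osmr went to 0.07 with upper-quartile scaling and 0.022 without IgG replicate 1 (range -0.212 to 0.022). Leaving out each library gave 0 to 1 members higher and 5 to 6 lower with the antibody, 1 higher and 3 to 5 lower under the knockout label, 9 to 10 higher in wild-type adenine against chow, and 3 higher and 2 lower in the difference. Depth limits the chow values of Il1a, Il1f6 and Il6, with 4, 2 and 2 reads over that group.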
